A study of Mus musculus with 12 samples.

Results

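Fibroblast growth factors (FGF), platelet-derived growth factors (PDGF) and the epidermal growth factor (EGF) family, together with their receptors, were read in liver sinusoidal endothelial cells with and without Notch1 intracellular domain overexpression. The genes were chosen by a rule on gene symbols, made with earlier results of these data known. The rule took the numbered FGF genes other than Fgf23 and the FGF receptors. It also took 3 PDGF ligands with the receptor Pdgfra, and the EGF ligands, neuregulins and ErbB receptors. The choice gave 43 genes with 1 probe set each among 25428 probe sets. Areg was not analysed here.

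The study compared 6 arrays labelled Control with 6 labelled NICD-OE-HEC, all from mouse livers. NICD-OE-HEC mice carry Clec4g-Cre(tg/wt) and the Rosa26-N1ICD-IRES-GFP allele, so that Cre made from Clec4g regulatory sequence, active in sinusoidal endothelium, switches on the intracellular part of the Notch1 receptor with a GFP reporter. Control mice carry the genotype label Ctrl, and neither their alleles nor the age of either group is given in the labels. Each sample is a pool of cells from 3 mice taken by magnetic selection for CD146, so an array averages animals and may hold other CD146-bearing cells.

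Growth factors of these families bind receptor tyrosine kinases at the cell surface, which pair up, phosphorylate each other and start the Ras and ERK cascade. FGF ligands need heparan sulfate to engage their receptors, PDGF ligands recruit mural and stellate cells, and most EGF family ligands are made as membrane proteins that a protease releases. In the liver, sinusoidal endothelium both responds to such factors and supplies them to hepatocytes and stellate cells.

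The arrays hold log2 expression values from RMA, with an overall median of 3.67. All 11 sinusoidal and pan-endothelial markers lay far above that median on every array, with a list mean of 10.84 to 11.13 in Control and 10.63 to 10.88 in NICD-OE-HEC. Their levels nevertheless differed between the groups, 7 of the 11 being called lower in NICD-OE-HEC and 3 higher (median difference -0.59). Stab2 and Clec4g, which mark sinusoidal endothelium, fell by 1.32 and 0.81, whereas Lyve1 rose by 0.83 and Mcam, which encodes the CD146 used for selection, by 0.92. The part of these marker changes in the results on growth factors was not tested. Within a group, arrays correlated at 0.976 to 0.992. Control 2 and NICD-OE-HEC 4 stood apart on the second principal component (-48.5 and -30.3, the others between -8.51 and 22.3). Markers of other cells also differed between the groups. For comparison, 4.89% of all probe sets were called higher in NICD-OE-HEC and 5.59% lower. Of 8 neutrophil markers 7 were called higher in NICD-OE-HEC, with a list mean of 3.56 to 5.13 in Control and 5.49 to 7.56 in NICD-OE-HEC. Of 6 matched cholangiocyte markers 5 were called higher (4.08 to 4.61 against 4.94 to 5.40), of 10 hepatocyte markers 3 (6.16 to 7.50 against 6.61 to 8.14), of 12 stellate cell and fibroblast markers 4, with 1 lower (4.69 to 5.88 against 5.59 to 6.08), and of 9 Kupffer cell and macrophage markers 1 (7.68 to 8.90 against 7.89 to 9.36). Of the early-response genes, which tissue dissociation can induce, 9 of 10 were called higher (6.02 to 7.46 against 7.34 to 9.18). Every marker in these 5 cell lists and in the early-response list had at least 1 group mean above the array median. The lymphocyte list gave 0 calls among 7 matched genes (3.80 to 4.04 against 3.39 to 4.47). The platelet list gave 2 higher among 5 (4.29 to 4.51 against 4.62 to 4.99, without overlap). The mesothelial list gave 1 higher among 5, Krt8, which biliary cells and hepatocytes also express (4.00 to 4.44 against 4.49 to 4.82, without overlap).

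**Figure D1:**
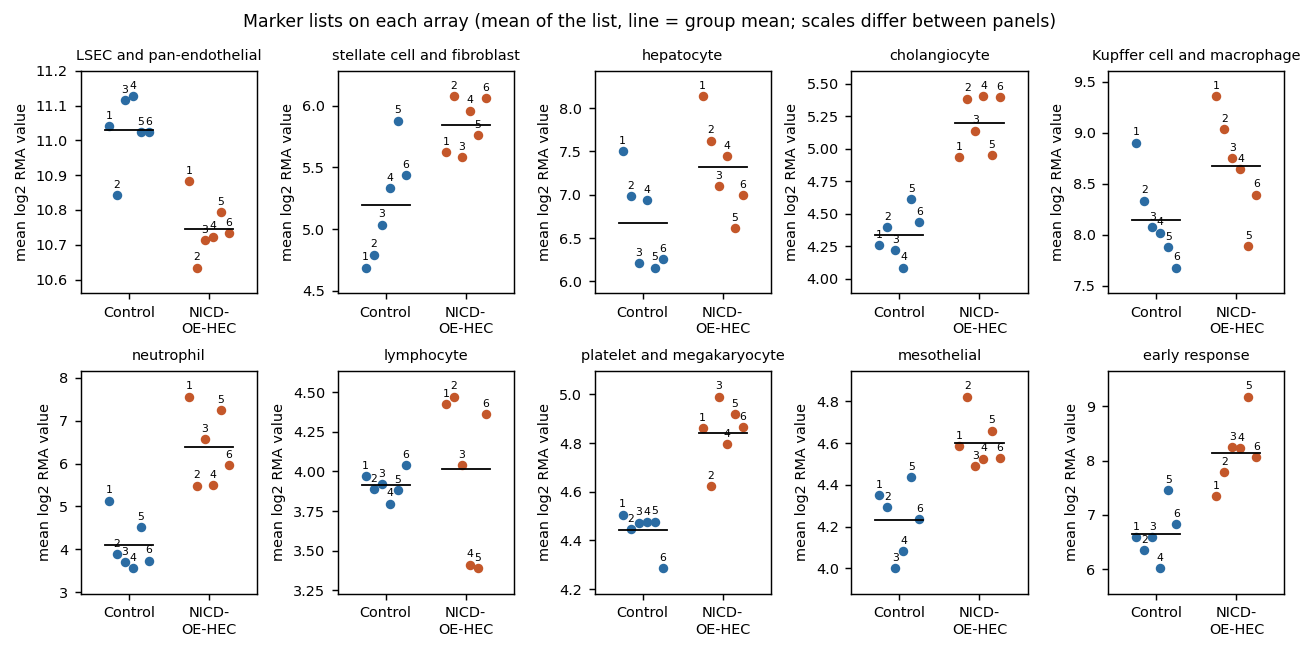
Mean log2 RMA value of each marker list on each array, with the replicate number beside the point and a line at the group mean; vertical scales differ between panels. In the neutrophil, cholangiocyte, platelet and mesothelial lists every NICD-OE-HEC array lies above every Control array. The early-response means also lie higher in NICD-OE-HEC, with overlap, and NICD-OE-HEC 5 has the highest, 9.18.

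Most of the growth factor system did not pass the test, and above background only a few ligands and a single receptor did. Nrg1, a ligand of ErbB receptors, and Pdgfc, a PDGF ligand, rose, while Fgf1 and the receptor Erbb2 fell, and in each of these 4 genes the groups did not overlap. A call means an adjusted p under 0.05 from limma over all probe sets. At that threshold 3 of the 43 genes were higher in NICD-OE-HEC and 2 lower, the third gene with a higher value being Erbb4, at a level near background. Over all probe sets 4.89% were called higher and 5.59% lower, and the members' shares of 6.98% and 4.65% lay near this background. Groups without overlap were found for 4 of the 43 (9.30%) and for 6.68% of all probe sets. The members' median difference was 0.02 on the log2 scale, against -0.01 for all probe sets, and the median size without regard to sign was 0.12 against 0.13. In these sorted samples, fewer cells of a type and less RNA per cell cannot be told apart.

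**Figure D2:**
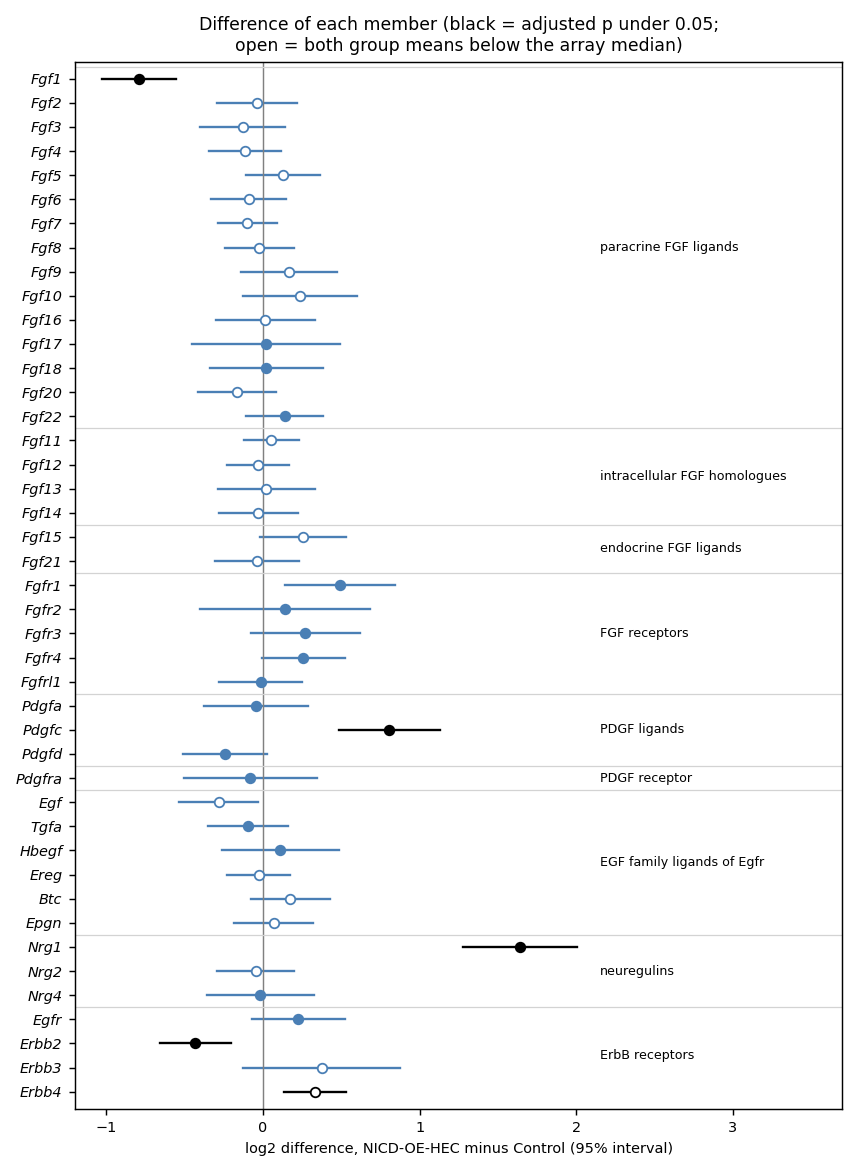
Log2 difference, NICD-OE-HEC minus Control, of each of the 43 genes with its 95% interval, grouped by role. Black marks the 5 genes with an adjusted p under 0.05, and open points mark genes whose group means both lie below the array median; Nrg1 at 1.64 and Fgf1 at -0.79 stand at the ends.

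Among the 15 paracrine FGF ligands, which act on neighbouring cells, Fgf1 alone passed the test. Fgf1 binds all FGF receptors and lacks a classical secretion signal. Its Control values ran from 5.63 through a median of 5.87 to 5.96, and its NICD-OE-HEC values from 4.77 through 5.00 to 5.41. All 6 NICD-OE-HEC arrays lay below every Control array. The mean fell from 5.82 ± 0.14 to 5.03 ± 0.22 (SD, n = 6 each), 1.73-fold lower (difference of log2 values -0.79 with SE 0.11, adjusted p = 1.75e-04). The difference lay between -0.87 and -0.74 when each array was left out in turn.

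The other paracrine FGF ligands gave 0 calls. In 11 of them (Fgf2, Fgf3, Fgf4, Fgf5, Fgf6, Fgf7, Fgf8, Fgf9, Fgf10, Fgf16 and Fgf20) both group means lay below the array median, too dim to tell from background. Their differences ran from -0.16 to 0.24, with adjusted p from 0.482 to 0.974. Fgf22, Fgf17 and Fgf18 lay above the median without a call. Fgf22 was 4.84 ± 0.18 in Control and 4.98 ± 0.22 in NICD-OE-HEC (adjusted p = 0.565). Fgf17 and Fgf18, close relatives of Fgf8, differed by 0.02 each. Both had their highest value of each group on the 2 arrays that stood apart: Fgf17 read 5.44 on Control 2 and 5.23 on NICD-OE-HEC 4, and Fgf18 5.51 and 5.21. Elsewhere Fgf17 did not exceed 4.76 and Fgf18 did not exceed 4.85.

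The FGF homologues that stay inside the cell and act on ion channels (Fgf11, Fgf12, Fgf13 and Fgf14) all lay below the array median in both groups and differed by -0.03 to 0.05. The hormone-like ligands Fgf15, the intestinal signal that restrains bile acid synthesis, and Fgf21, a hepatic fasting hormone, were below it too. Fgf15 differed by 0.25 (95% interval -0.02 to 0.53, adjusted p = 0.271), with NICD-OE-HEC 4 the highest array at 4.05. Fgf21 differed by -0.04. The third hormone of the family, Fgf23, which the choice of genes leaves out, rose from 2.76 ± 0.15 to 6.10 ± 1.68 (SD, n = 6 each; adjusted p = 0.00106), a Control level below the array median.

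No FGF receptor passed the test, although 4 of the 5 had a positive difference. Fgfr1, the main mesenchymal and endothelial FGF receptor, ran from 5.01 through a median of 5.43 to 5.89 in Control and from 5.55 through 5.97 to 6.35 in NICD-OE-HEC. The groups overlapped, with 3 NICD-OE-HEC arrays above every Control array and all 6 above the Control mean. The log2 difference was 0.49 (SE 0.16, 95% interval 0.14 to 0.84, adjusted p = 0.0723). The call depended on single arrays: without Control 1 the adjusted p was 0.0359, without NICD-OE-HEC 1 it was 0.0347, and with the dimmest 50 percent of probe sets left out before adjustment it was 0.0449. Within NICD-OE-HEC, Fgfr1 was lowest on array 1 (5.55) and highest on array 5 (6.35), the arrays that also had the lowest and highest early-response means (7.34 and 9.18). Control did not keep this order. Fgfr1 was highest on Control 1 (5.89), with an early-response mean of 6.59, whereas Control 5 had the highest mean (7.46). The lowest Fgfr1 value was on Control 2 (5.01) and the lowest mean on Control 4 (6.02). The part of early-response induction in the Fgfr1 difference was not tested.

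The Fgfr3 result turned on 1 array. Control 5 read 5.50, whereas the other Control arrays lay between 4.46 and 4.77 and the NICD-OE-HEC arrays between 4.82 and 5.35. With all arrays the difference was 0.27 (95% interval -0.08 to 0.62, adjusted p = 0.384), and without Control 5 it was 0.42 (adjusted p = 0.0287). Fgfr2, the receptor with epithelial and mesenchymal splice forms, varied widely in Control, from 4.16 to 5.79, and less in NICD-OE-HEC, from 4.54 to 5.52, with a difference of 0.14 (95% interval -0.40 to 0.68, adjusted p = 0.829). In Control, its values followed the stellate cell and fibroblast marker mean array by array: both were lowest on Control 1 (4.16 and 4.69), and rose in the order Control 2, 3, 4 and 6 to Control 5 (5.79 and 5.88). In NICD-OE-HEC both were lowest on array 3 (4.54 and 5.59), but Fgfr2 was highest on array 6 and the marker mean on array 2. The part of those cells in the Fgfr2 values was not tested. Fgfr4, the hepatocyte receptor for Fgf15, was near the array median, at 3.69 ± 0.22 and 3.95 ± 0.22 (SD, n = 6 each; adjusted p = 0.242). Fgfrl1, a family member without a kinase domain, was 4.23 ± 0.27 and 4.22 ± 0.16, with an interval from -0.28 to 0.25.

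**Figure D3:**
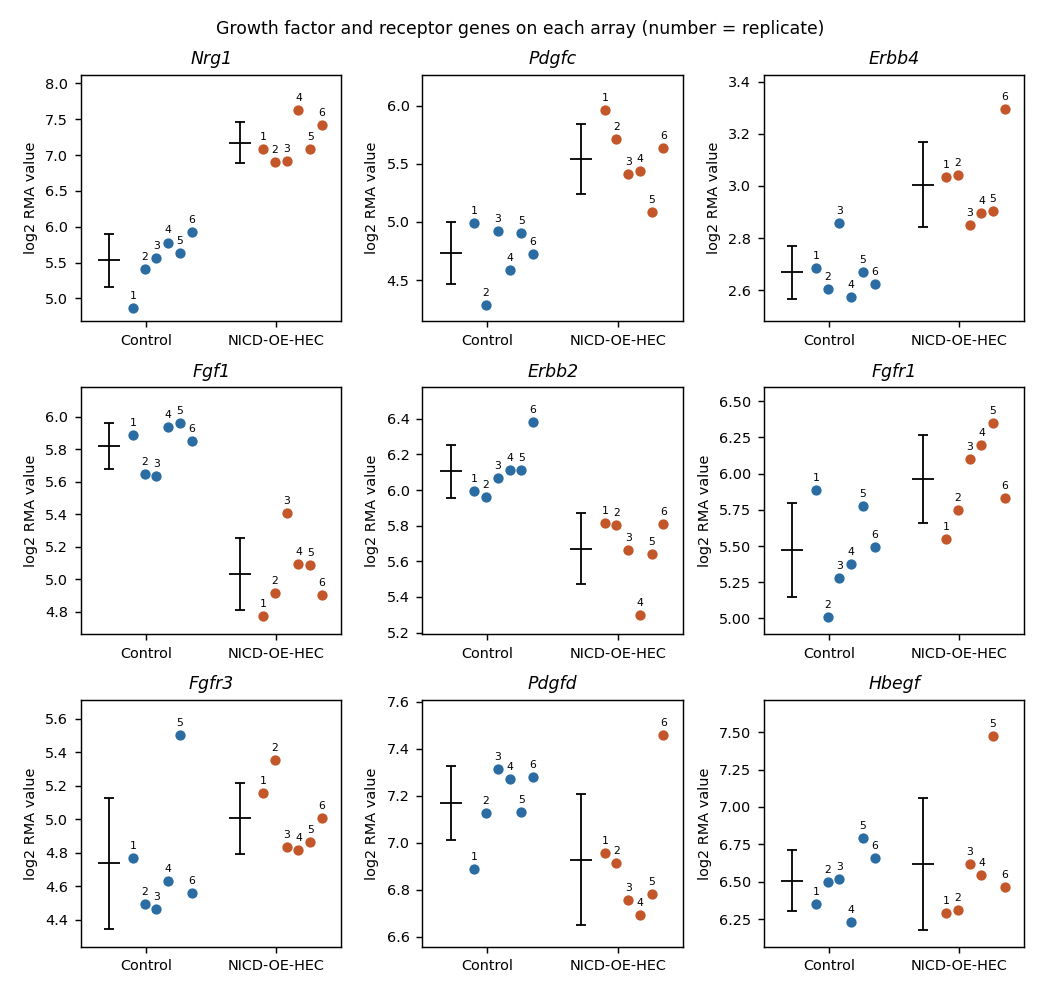
Log2 RMA values of 9 genes on each array (points, numbered by replicate) with the group mean and SD beside them; vertical scales differ between panels. Nrg1, Pdgfc, Fgf1 and Erbb2 have groups that do not overlap, whereas 1 array each stands away from its group in Fgfr3 (Control 5, 5.50), Pdgfd (NICD-OE-HEC 6, 7.46) and Hbegf (NICD-OE-HEC 5, 7.48).

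The PDGF ligands differed from one another. Pdgfc, a ligand of Pdgfra that is secreted in a latent form and activated by proteolysis, ran from 4.28 through a median of 4.81 to 4.99 in Control and from 5.08 through 5.54 to 5.96 in NICD-OE-HEC. Every NICD-OE-HEC array exceeded every Control array. The mean rose from 4.73 ± 0.27 to 5.54 ± 0.30 (SD, n = 6 each), 1.75-fold (log2 difference 0.81, SE 0.15, adjusted p = 0.00215), and the difference stayed between 0.72 and 0.90 over single arrays left out. Within NICD-OE-HEC the highest Pdgfc value was on array 1 (5.96) and the lowest on array 5 (5.08). These arrays also had the highest and lowest hepatocyte means (8.14 and 6.61) and Kupffer cell means (9.36 and 7.89). Control 1 likewise had the highest Pdgfc value (4.99) and the highest means of its group (7.50 and 8.90). Control 2 went the other way, with the lowest Pdgfc value (4.28) and the second-highest means of its group (6.99 and 8.33). Control 5 had the lowest hepatocyte mean (6.16) and read 4.90. The part of hepatocytes and Kupffer cells in the Pdgfc difference was not tested.

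The Notch intracellular domain acts with the DNA-binding protein RBPJ, so promoters of called genes were searched for its motif. Only 3 called genes had a promoter entry. Nrg1 and Fgf1 had none and were not searched. Pdgfc and Erbb2 are the called genes above background with an entry in the RefSeq promoter table (GRCm38.p6), and the 250 bases before each start are shown 5′ to 3′ to let the letters be compared with the motifs below. The Pdgfc window is chr3:81036166-81036415 on the plus strand and the Erbb2 window chr11:98412234-98412483 on the plus strand.
Pdgfc: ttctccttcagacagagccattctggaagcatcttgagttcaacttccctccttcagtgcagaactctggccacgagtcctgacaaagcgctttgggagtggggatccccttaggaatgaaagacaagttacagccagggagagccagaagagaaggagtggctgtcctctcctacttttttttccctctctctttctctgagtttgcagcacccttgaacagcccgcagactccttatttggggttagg
Erbb2: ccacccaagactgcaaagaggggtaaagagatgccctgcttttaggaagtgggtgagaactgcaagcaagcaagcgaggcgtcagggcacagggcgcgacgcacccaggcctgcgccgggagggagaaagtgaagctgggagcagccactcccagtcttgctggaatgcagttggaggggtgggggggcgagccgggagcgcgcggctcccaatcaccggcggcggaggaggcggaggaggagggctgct
Neither window, nor that of Erbb4, held TGGGAA, the core of the RBPJ motif, or TGANTCA, the AP-1 motif, on either strand, so no letters are in capitals. In the table's windows of 250 bases before to 50 after a start, TGGGAA occurred in 25.6% of 32851 promoters and in 8 of 40 promoters of the 31 members with an entry. Those 8 belong to Fgf7, Fgf10, Fgf11, Fgf12, Fgfr2, Fgfrl1, Pdgfa and Pdgfd, none of them called. With only 3 called genes searched, and in short windows, the part of RBPJ in the calls was not tested. TGANTCA occurred in 7.81% of all promoters and in 2 of the 40.

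Pdgfd, a ligand of Pdgfrb, was lower in 5 of the 6 NICD-OE-HEC arrays than the Control mean. Its Control values ran from 6.89 through a median of 7.20 to 7.31. The NICD-OE-HEC values lay between 6.69 and 6.96 except for 7.46 on array 6, above every Control array. The difference was -0.24 (95% interval -0.51 to 0.03, adjusted p = 0.296) with all arrays and -0.35 (adjusted p = 0.0415) without NICD-OE-HEC 6. Pdgfa was 4.61 ± 0.27 and 4.57 ± 0.32 (SD, n = 6 each; interval -0.38 to 0.29). Pdgfra, the receptor of Pdgfa and Pdgfc and a marker of stellate cells and fibroblasts, was close to the array median at 3.92 ± 0.49 and 3.84 ± 0.25 (difference -0.08, interval -0.50 to 0.34, adjusted p = 0.883). Its highest array was Control 5 (4.78), which also had the highest stellate cell mean of the Control group (5.88). NICD-OE-HEC did not keep this order. Array 3 had its highest Pdgfra value (4.11) and its lowest stellate cell mean (5.59), and array 2 its highest such mean (6.08) with Pdgfra at 3.66. The part of those cells in the Pdgfra values was not tested.

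Of the 6 matched EGF family ligands that bind Egfr, 0 passed the test. Hbegf, a heparin-binding ligand induced by injury, ran from 6.23 through a median of 6.51 to 6.79 in Control. In NICD-OE-HEC it ran from 6.29 to 6.62 on 5 arrays and reached 7.48 on array 5, the array with the highest early-response mean (9.18). The difference was 0.11 (95% interval -0.26 to 0.49, adjusted p = 0.801) and became -0.06 without that array. The part of early-response induction in the Hbegf values was not tested. Tgfa, a hepatocyte mitogen, was 5.81 ± 0.21 and 5.71 ± 0.21 (adjusted p = 0.744). Egf, Ereg, Btc and Epgn had both group means below the array median, with differences from -0.28 for Egf (adjusted p = 0.168) to 0.17 for Btc.

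Nrg1 showed the clearest change of all 43 genes. This neuregulin binds Erbb3 and Erbb4 and is made by endothelium in several organs, where it acts on neighbouring cells. Its Control values ran from 4.87 through a median of 5.60 to 5.93, and its NICD-OE-HEC values from 6.91 through 7.08 to 7.62. The lowest NICD-OE-HEC array was almost 1 log2 unit above the highest Control array. The mean rose from 5.53 ± 0.37 to 7.17 ± 0.29 (SD, n = 6 each), 3.12-fold (log2 difference 1.64, SE 0.17, adjusted p = 1.02e-05). Leaving out single arrays gave 1.51 to 1.72. Within NICD-OE-HEC its highest value was on array 4 (7.62), and array 5, with the highest early-response mean (9.18), read 7.09. In Control its lowest values were on arrays 1, 2 and 3 (4.87, 5.42 and 5.56), the arrays with the lowest stellate cell and fibroblast means, in the same order (4.69, 4.79 and 5.04). Other arrays did not keep this order. Control 5 had the highest such mean of its group (5.88) but read 5.64, below Control 6 (5.93). NICD-OE-HEC 2 had the highest such mean of its group (6.08) and the lowest Nrg1 value (6.91). The part of early-response induction or of those cells in the Nrg1 difference was not tested. The other neuregulins did not pass: Nrg4 differed by -0.02 (interval -0.36 to 0.32) and Nrg2, below the array median in both groups, by -0.05.

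Among the ErbB receptors, 1 fell, 1 rose near background and 2 did not pass. Erbb2, which has no ligand of its own and serves as the shared partner of the other ErbB receptors, fell. It ran from 5.96 through a median of 6.09 to 6.38 in Control and from 5.30 through 5.73 to 5.81 in NICD-OE-HEC, with no overlap between the groups. The Erbb2 mean went from 6.10 ± 0.15 to 5.67 ± 0.20 (SD, n = 6 each), 1.35-fold lower (log2 difference -0.43, SE 0.11, adjusted p = 0.0150). Its extremes were Control 6 (6.38) and NICD-OE-HEC 4 (5.30). The difference was -0.46 to -0.36 over single arrays left out, with an adjusted p from 0.0135 to 0.0400. Egfr was 4.58 ± 0.25 and 4.81 ± 0.27 (difference 0.22, interval -0.07 to 0.52, adjusted p = 0.397).

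Erbb3 and Erbb4, the receptors that bind neuregulins directly, lay below the array median in both groups. Erbb3, which hepatocytes and biliary cells express, ran from 2.67 to 3.67 in Control and from 2.80 to 4.23 in NICD-OE-HEC (difference 0.37, interval -0.13 to 0.88, adjusted p = 0.406). Its highest arrays were NICD-OE-HEC 1 and 2 (4.18 and 4.23), which had the highest hepatocyte means (8.14 and 7.62). Other arrays did not keep this order: NICD-OE-HEC 4 had the third-highest hepatocyte mean of its group (7.45) and the lowest Erbb3 value (2.80), and Control 2 the second-highest of its group (6.99) and the lowest Erbb3 value of all arrays (2.67). The part of hepatocytes in the Erbb3 values was not tested. Erbb4 was 2.67 ± 0.10 in Control and 3.00 ± 0.16 in NICD-OE-HEC (SD, n = 6 each), higher by 0.33 (SE 0.09, adjusted p = 0.0295). The Erbb4 call was lost in 6 of the 12 fits that left out 1 array, those without Control 4, 5 or 6 or NICD-OE-HEC 1, 2 or 6 (adjusted p up to 0.0704). Both means lie near background, so the size of its difference is uncertain.

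**Figure D4:**
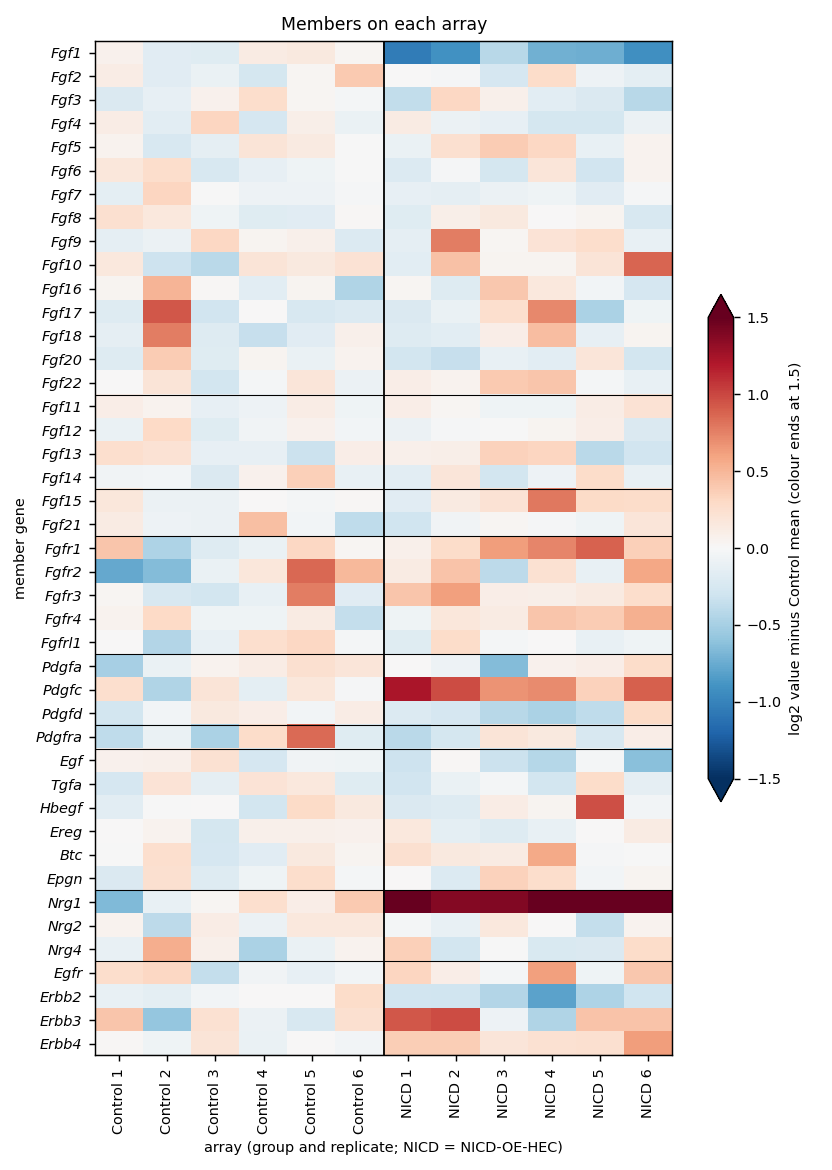
Log2 RMA value of each of the 43 genes on each array minus that gene's Control mean (colour, ending at 1.5), with the groups split by the vertical line and the roles by horizontal lines. Fgf1, Pdgfc, Nrg1 and Erbb2 keep 1 direction on all 6 NICD-OE-HEC arrays. So do Erbb4, near background, and the uncalled Fgf7, Fgfr1 and Fgfr3. Fgf17 and Fgf18 are highest on Control 2 and NICD-OE-HEC 4.

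Genes that work around these receptors, and relatives of the members such as the Vegf genes, were counted from 7 lists. For comparison with each count, 4.89% of all probe sets were called higher and 5.59% lower. Of 16 surface co-receptors and extracellular modulators of FGF, 3 rose and 2 fell, with a median difference of 0.06. Flrt1, a membrane protein that binds FGF receptors, was 6.70 ± 0.15 in Control and 4.59 ± 0.38 in NICD-OE-HEC (SD, n = 6 each), a fall of 4.30-fold (adjusted p = 3.29e-07). Gpc1, a glypican that carries heparan sulfate, fell from 6.39 ± 0.24 to 5.23 ± 0.07 (adjusted p = 3.42e-06). The syndecans Sdc1 and Sdc4, which carry heparan sulfate as transmembrane proteins, rose by 1.00 (adjusted p = 9.07e-06) and 0.87 (adjusted p = 5.96e-05). Sdc2 rose by 0.68 (adjusted p = 0.0199), or by 0.52 without a call when Control 2 and NICD-OE-HEC 4 were left out (adjusted p = 0.0679). The klotho genes Kl and Klb, co-receptors for the hormone-like FGFs, were below the array median and differed by -0.02 and 0.05.

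Over all probe sets 5.59% were called lower and 4.89% higher. Of 9 genes for the proteases that release EGF family ligands and their cofactors, 1 fell and 0 rose. It was Adam12, a protease that can shed Hbegf, which went from 5.90 ± 0.22 to 4.60 ± 0.20 (SD, n = 6 each; adjusted p = 3.30e-06) with no overlap. Adam17 and Adam10, the main sheddases of the family, differed by 0.08 (interval -0.10 to 0.27) and 0.00 (interval -0.19 to 0.19). Of 20 matched receptor adaptors and ubiquitin ligases 1 passed, the phospholipase Plcg1, which fell by 0.45 (adjusted p = 0.0367). Its call was lost in 10 of the 12 fits that left out 1 array, all but those without Control 2 or NICD-OE-HEC 1, with an adjusted p up to 0.0883. Of 9 matched Ras, Raf and ERK pathway genes 1 fell, the small GTPase Rras2 (-0.34, adjusted p = 0.0198, or 0.0584 without Control 2 and NICD-OE-HEC 4).

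Among 15 matched negative feedback regulators 3 rose and 2 fell (median 0.03), against 4.89% and 5.59% of all probe sets. Lrig1, which promotes degradation of ErbB receptors, went from 4.79 ± 0.24 to 6.42 ± 0.26 (SD, n = 6 each), a rise of 3.09-fold (adjusted p = 1.31e-06). Errfi1, an inhibitor of the Egfr kinase that stress and early-response signals also induce, rose by 1.09 (adjusted p = 0.00300). The ERK phosphatases Dusp7 and Dusp4 fell by 0.76 (adjusted p = 0.00114) and 0.69 (adjusted p = 0.00753). Dusp6 and Spry4, which FGF signalling induces in many tissues, differed by 0.26 (interval -0.02 to 0.53) and -0.01 (interval -0.40 to 0.37). Spry1 passed narrowly (0.37, adjusted p = 0.0492) and lost its call in 9 of the 12 fits that left out 1 array, all but those without Control 5 or NICD-OE-HEC 1 or 2 (adjusted p up to 0.108).

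Of 12 ERK-induced transcription factors and targets 2 rose, against 4.89% of all probe sets. They were Myc (1.73) and Maff (0.75, adjusted p = 0.00761), both of which belong to the genes that early-response stimuli induce. Without NICD-OE-HEC 1 the count of higher genes was 4, with Egr3 and Phlda1 added, and without Control 5 the list also had 1 gene called lower. Etv4 and Etv5, ETS factors downstream of FGF receptors, differed by -0.02 and -0.20 (adjusted p = 0.954 and 0.407). Of 7 relatives outside the 43 genes 3 rose, Vegfc, Vegfa and Pdgfb. Pdgfb, the endothelial ligand that recruits mural cells through Pdgfrb, went from 5.68 ± 0.35 to 6.89 ± 0.38 (SD, n = 6 each), 2.32-fold (adjusted p = 3.78e-04). Pdgfrb, carried by stellate and mural cells, differed by 0.58 and did not pass (interval 0.20 to 0.96, adjusted p = 0.0531).

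**Figure D5:**
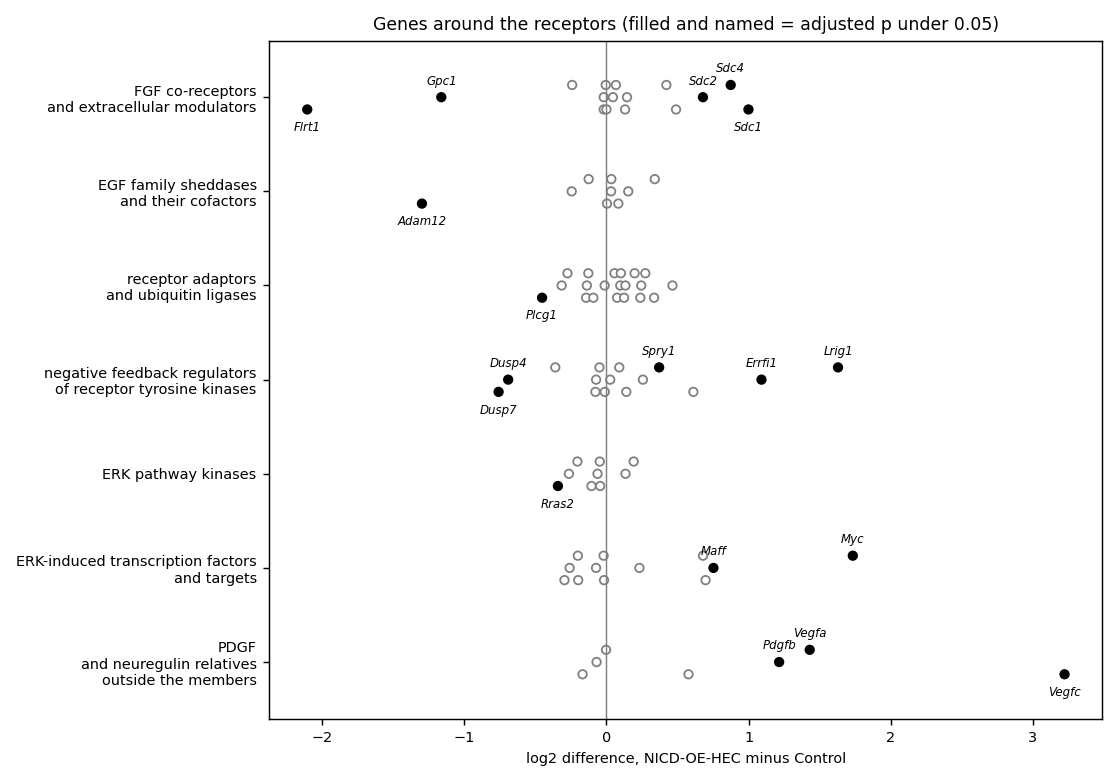
Log2 difference, NICD-OE-HEC minus Control, of each gene in 7 lists (rows): genes that act around the receptors, and relatives outside the members. Genes at an adjusted p under 0.05 are filled and named. Flrt1 at -2.11 and Vegfc, from the list of relatives, at 3.22 lie at the ends, and most other genes lie close to 0.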

How the data were processed

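RNA of magnetically selected mouse liver sinusoidal endothelial cells (25 min collagenase digestion, then a 19.3% Nycodenz gradient, per the labels' protocols) was hybridized to Affymetrix arrays, 6 per group. The deposited values are log2 expression values that the authors made with RMA, per the submitters' processing notes; the RMA software, the chip definition and the genome build: not given in the sources used here. All arrays share 1 set of quantiles, so a change of most genes in 1 direction would not show. There are no detection calls, and a mean below the array median was treated as not separable from background. All 43 members had 1 probe set named in the platform annotation of 2018, and all 43 identifiers and symbols matched RefSeq.

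Differences (NICD-OE-HEC minus Control) were fitted with limma 3.58.1 in R 4.3.3 over all 25428 probe sets, two-sided, with Benjamini-Hochberg adjustment. The number of arrays limits the precision. The labels call samples biological replicates. The main fit did not pair samples by replicate number. Deviations from the group mean correlated above 0.1 in 3 of 6 same-numbered pairs (0.22, 0.18 and 0.103 for replicates 1, 5 and 6). They lay between -0.10 and -0.07 in the other pairs. Differently numbered pairs were not compared, so whether equal numbers share a batch was not tested. Members and gene lists were chosen with earlier results of these data known. The genes named are all called members, all receptors and PDGF ligands, Fgf1, Hbegf and Fgfr1, and up to 4 called genes of each pathway list; other members and Sdc2, Spry1 and uncalled pathway genes were named after their values were seen. On simulated data of 25428 probe sets, 54.5% of changes of log2 0.5, 94.2% of log2 1 and 100% of log2 2 were recovered. That simulation changed 55, 69 and 76 probe sets by these sizes, with independent normal noise. It gave 181 calls, against 2666 in the data, so its recovery need not hold for the data. Alternatives were array weights, a replicate block, centring on the array median, a robust eBayes fit with a trend, a second quantile step, filters that dropped 25 or 50 percent of the probe sets by brightness, single arrays left out and a log2 difference of at least 1. Leaving out Control 2 and NICD-OE-HEC 4 together, and all alternatives for pathway genes, were chosen after seeing the data.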

Additional observations from a re-analysis of the deposited data

Results flagged for a closer look

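Single arrays stood far from the other 5 of their group in 8 of the 86 groups of values examined (43 genes in 2 groups), where chance alone flags about 1 group in 20. In Control these were Fgf7 (2.69 on Control 2, others up to 2.37) and Ereg (3.03 on Control 3, others from 3.29), both near background, Fgf17 (5.44 on Control 2, others up to 4.51), Fgfr3 (5.50 on Control 5, others up to 4.77) and Erbb2 (6.38 on Control 6, others up to 6.11). In NICD-OE-HEC they were Pdgfd (7.46 on array 6, others up to 6.96), Hbegf (7.48 on array 5, others up to 6.62) and Erbb2 (5.30 on array 4, others from 5.64).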

How the results depend on the processing

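The counts of called members stayed within 1.5 times under every alternative except the stricter call of a log2 difference of at least 1, which left 1 member higher (Nrg1) and 0 lower; without that limit, limma called 3 and 2. Nrg1, Pdgfc, Fgf1 and Erbb2 kept their calls in all 20 other fits. With the replicate block, Erbb4 lost its call (adjusted p = 0.0780), as did Sdc2, Plcg1 and Spry1, and the block changed no other call among the members recomputed. With single arrays left out, 2 to 4 members were called higher and 2 to 3 lower. Members without a call and with a difference near 0 changed sign over single arrays left out: Fgf17 (-0.12 to 0.20), Fgf18 (-0.0655 to 0.18), Fgfr2 (-0.0123 to 0.31), Fgfrl1 (-0.10 to 0.0474), Pdgfa (-0.15 to 0.0739), Pdgfra (-0.17 to 0.0908), Hbegf (-0.0600 to 0.18) and Nrg4 (-0.11 to 0.0928). Without both Control 2 and NICD-OE-HEC 4, Fgfr2 was -0.0042 and Nrg4 0.14, and with array weights Nrg4 was 0.0598; the cause was not tested. The filter at the array median left 19 of the 43 members. Signal near background limits the statements on the other 24. Of the counts for the 7 pathway lists, 248 values under the alternatives stayed within 1.5 times and 32 moved further, all in 4 lists with 0 to 2 calls in a direction. The receptor adaptors gave 0 to 2 lower calls and 0 to 1 higher over single arrays left out, the sheddases 0 to 1 higher, and the ERK-induced genes 2 to 4 higher and 0 to 1 lower. The Ras, Raf and ERK genes gave 0 lower calls without Control 2 and NICD-OE-HEC 4.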
